A study of Mus musculus with 6 samples.

Results

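The genes described here are the Zfp zinc finger genes that mouse embryonic stem cells (mESCs) express at a moderate or high level. They were chosen by name and by level, as the genes whose symbol is Zfp followed only by digits and whose normalized count averaged 50 or more over the 6 libraries, with Zfp42 and Zfp352 dropped by name. This gave 160 members out of 333 Zfp genes of that form, in a table of 23412 genes of which 7659 had a mean of at least 50. The values that chose the members are their mean levels over both lines, so these levels are given as a description. The rule did not use the difference between the lines or the dates as such, but a gene near the threshold can have passed only through the line in which it was higher. The series compares undifferentiated cells of R1, the parental wild type line of strain 129Sv, with HN, its Htt-/- derivative in which the promoter and exon 1 of the huntingtin gene were deleted. Each line was sequenced as 3 RNA-seq libraries. Both lines were grown without feeder cells on gelatin, in serum with LIF and inhibitors of FGF receptor, MEK and GSK3. Replicates of the same number were collected on the same date in both lines, which gives 3 same-date pairs. HN is 1 line, so that a difference from R1 cannot be told apart from other differences between the 2 lines.

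Most Zfp genes encode C2H2 zinc finger proteins, in which repeated finger modules each hold a zinc ion between cysteine and histidine residues and contact a few bases of DNA. The largest class in mammals also carries a KRAB domain, which recruits the corepressor Trim28 (KAP1) and, through it, the H3K9 methyltransferase Setdb1 and HP1 proteins. In embryonic stem cells this machinery silences endogenous retroviruses and protects the DNA methylation of imprinted regions. Many KRAB zinc finger genes lie in clusters that arose by duplication, so that neighbours can be alike in sequence. The Zfp name also covers proteins with other jobs, among them transcription factors of stem cells, spindle and ribosome proteins and ubiquitin ligases.

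Between 1640391 and 3866717 reads per library lay on genes. Htt, the deleted gene, had 199 to 257 normalized counts in R1 and 18.3 to 58.1 in HN, so the labels and the deleted gene go together. The summed level of 8 markers of mESCs was 10351 to 16004 in R1 and 11622 to 16286 in HN. This sum hides differences of single markers. By limma with the collection date in the fit, Nanog (log2 difference, HN minus R1, 0.28), Klf4 (0.52), Esrrb (0.37) and Dppa5a (0.27) were higher in HN at an adjusted p under 0.05. Utf1 (-1.06) was lower, and Pou5f1, Sox2 and Tdgf1 did not pass. Without the date in the fit, none of the 8 passed. The sums over markers of other cells were far lower, and 0 of these markers were at 0 in all libraries. The sums were 11.3 to 98.4 for 5 fibroblast genes, 25.9 to 128 for 4 primitive endoderm genes and 29.6 to 111 for 3 neural genes. For 2 mesoderm genes the sum was 12.8 to 53.3 in R1 and 52.3 to 71.5 in HN. In the fit with the date, the mesoderm gene T was higher in HN (log2 difference 1.21) and the fibroblast gene Thy1 lower (-1.54). In both lines the fibroblast, primitive endoderm and neural sums were highest in the library of the third date. In bulk RNA, fewer cells of a type and less RNA per cell cannot be told apart.

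The members spanned a wide range of levels. Their mean normalized counts ran from 50.1 to 1870, with a median of 116, and 118 of them lay under 200 while 8 lay above 500. The lowest number of reads behind any member in any library was 18. Together the members took 1.12%, 1.25% and 1.06% of all gene reads in the R1 libraries of dates 1, 2 and 3, and 1.20%, 1.28% and 1.12% in the HN libraries of these dates, so the HN library was the higher in each same-date pair. Just above the threshold lay Zfp954 (mean 50.1), Zfp937 (51.0) and Zfp282 (51.5), and just below it Zfp239 (49.6), Zfp800 (49.3) and Zfp882 (49.2). For 10 members the mean of one of the lines was below 50, so that they are members only through the other line. These were Zfp386, Zfp27, Zfp617, Zfp182 and Zfp296, with R1 below 50, and Zfp954, Zfp251, Zfp937, Zfp595 and Zfp493, with HN below 50. Their line difference is in part fixed by the rule. The counts called by limma with the block are also given without them, while the other counts and medians keep them. Of the 171 Zfp genes under the threshold, 153 were abundant enough to be tested.

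Levels can be compared between genes only per length, as normalized counts per kilobase of the gene's exons. On that scale the members ranged from 4.29 to 421, with a median of 23.2. Zfp57, which holds DNA methylation at imprinted regions, had the highest level, 421 normalized counts per kilobase. It was followed by Zfp207 (281), a spindle protein that binds microtubules and Bub3, by Zfp936 (177), by Zfp106 (176), an RNA-binding protein known from motor neurons, and by Zfp961 (147). Of these, Zfp57, Zfp936 and Zfp961 hold a KRAB pattern in their predicted protein and Zfp207 and Zfp106 do not. Zfp568, a KRAB protein that represses a placental transcript of Igf2, had 121, and Zfp281, a regulator of pluripotency, had 125.

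The comparison of HN with R1 asked whether zinc finger genes were among the transcripts that differ without huntingtin. Most members differed little. On the log2(normalized count + 1) scale the median difference, HN minus R1, was 0.08 over the members, against -0.01 over the 14276 genes tested and 0.02 over the 7659 genes with a mean of at least 50. The members' medians within the pairs of dates 1, 2 and 3 were 0.02, 0.08 and 0.14. For genes with a mean of at least 50 they were -0.06, 0.03 and 0.09. The middle range of the members, from the lower to the upper quartile, was -0.09 to 0.24, and the extremes were -0.67 and 1.14. For 142 members (88.8%) the difference was smaller than 0.5 in either direction. With single libraries left out the median ran from -0.04, without R1 replicate 3, to 0.18, without HN replicate 3. It was also 0.18 without R1 replicate 2 and -0.004 without HN replicate 2. Each of these fits breaks a same-date pair, and the members' medians within the pairs, given above, were all above 0.

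**Figure D1:**
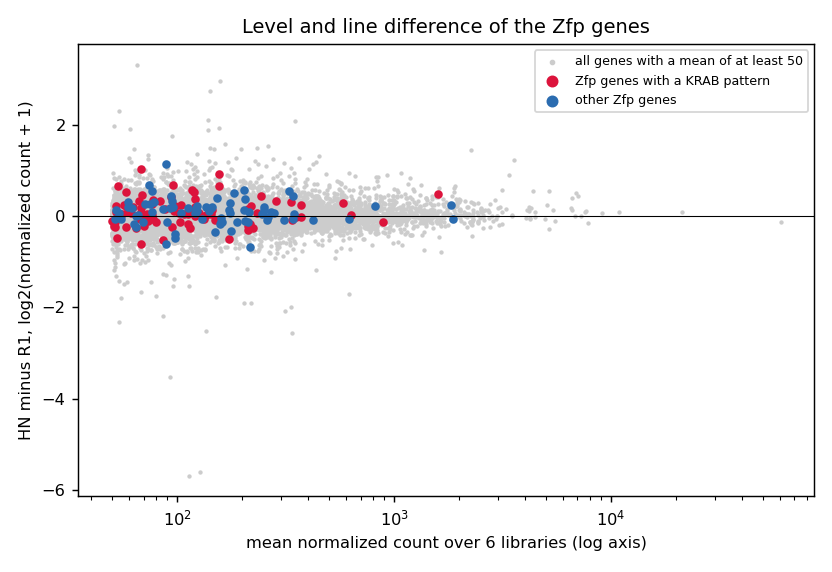
The horizontal axis is the mean normalized count over the 6 libraries (log axis) and the vertical axis the log2 difference HN minus R1. Each grey point is 1 of the 7659 genes with a mean of at least 50, and the coloured points are the 160 Zfp genes, split by a KRAB pattern in the predicted protein. The Zfp genes lie mostly under 200 normalized counts and within 0.5 of 0, from -0.67 to 1.14.

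When limma was fitted without the date, 0 members were higher and 0 lower in HN at a Benjamini-Hochberg (BH) adjusted p under 0.05. In that fit 17 of 14276 genes (0.119%) were higher and 18 (0.126%) were lower. The smallest adjusted p of a member was 0.126, for Zfp213. At an unadjusted p under 0.05, limma had 10 members higher and 3 lower, against 3.15% and 2.75% of all genes tested. On the recovered reads edgeR called 0 members without a block, beside 0.112% of genes higher and 0.126% lower. At an unadjusted p under 0.05 edgeR had 11 members higher and 3 lower, against 3.29% and 2.85% of genes. DESeq2 without a block called 1 higher, Zfp213 (adjusted p = 0.0124), and 0 lower, against 0.621% and 0.402% of the genes to which it gave an adjusted p. At an unadjusted p under 0.05 it had 8 higher and 2 lower, against 2.87% and 2.38%. All these shares include genes with a mean below 50, so they are not at the level of the members. With 3 libraries on each side, the smallest two-sided p that exact permutation allows is 0.1, so no such test of a single gene can pass.

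With the replicate number, which stands for the shared collection date, as a block, limma had 18 members (11.2%) up-regulated in HN and 6 (3.75%) down-regulated. The same fit had 5.46% of all genes tested higher and 4.02% lower, and, among genes with a mean of at least 50, 8.77% higher and 5.21% lower. Both shares of the members were thus close to those of genes with a mean of at least 50, and neither difference was tested. That set has no upper limit of level, so it is not matched to the members in abundance. The median standard error of a member was 0.24 without the block and 0.15 with it, and the median reach of the 95% interval with the block was 0.30 to either side. Without the 10 members that had a mean below 50 in one line, 16 of 150 were higher and 6 lower, against 8.60% and 4.76% of the genes with a mean of at least 50 in each line. These counts rest on the trend of variance on expression in limma: without it, 0 members and 0 genes of the table were called with the block, with 18 members higher and 8 lower at an unadjusted p under 0.05 (7.36% and 8.42% of all genes tested). Without both libraries of date 2, the fit with the block had 7 members higher and 1 lower, against 2.13% and 1.33% of all genes tested. Shares of all genes tested include genes with a mean below 50, so they are not at the level of the members.

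HN was above R1 in all 3 pairs for 57 members (35.6%) and below it in all 3 for 28 (17.5%), against 27.3% and 21.2% of the genes with a mean of at least 50. All 3 HN libraries lay above all 3 R1 libraries for 15 members (9.38%), against 5.23% of all genes tested, and below them for 6 (3.75%), against 5.54%. Unlike the members, the genes tested include those with a mean below 50, so these shares are not compared at a like level. All 24 members called with the block had one sign in all 3 pairs. The call is made from these same pair differences, so a shared sign is favoured by the selection and is no separate support. For 12 of the 24 the lines were fully apart, with no library of one inside the range of the other. The shares of all called genes with these traits are not given here. Of these 24, 7 are uncertain because over 10% of their transcript sequence is shared with, or overlaps, another gene. By limma, edgeR and DESeq2 with the block alike, 6 members were called higher (Zfp57, Zfp213, Zfp386, Zfp553, Zfp600 and Zfp951) and 1 lower (Zfp330), as were 3.49% and 1.86% of the genes to which DESeq2 gave an adjusted p. Among them, Zfp386 is a member only through HN, so its direction is fixed by the rule.

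**Figure D2:**
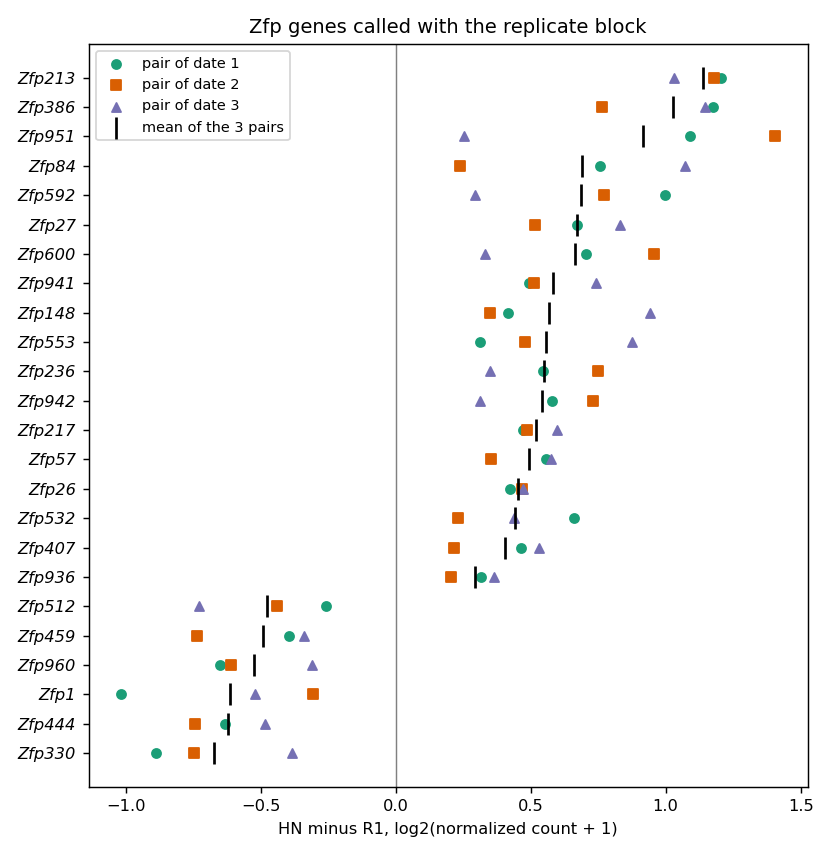
Each row is 1 of the 24 Zfp genes called by limma with the replicate block, and the horizontal axis is the log2 difference HN minus R1. Coloured symbols are the 3 same-date pairs and black bars their mean. All symbols of the upper 18 genes lie to the right of 0 and all symbols of the lower 6 to the left, with means from -0.67 (Zfp330) to 1.14 (Zfp213). The genes were called from these same pair differences, which favours one sign.

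Zfp213 and Zfp386 had the largest positive differences of the members, and were the 2 that passed with the block at a log2 difference above 1, as 0.911% of all genes tested did. Zfp213 holds a SCAN pattern, the mark of a domain through which such proteins pair with each other, and 5 fingers (GRCm38, chromosome 17 from 23556767 to 23564238, minus strand). On dates 1, 2 and 3 it had normalized counts of 56.4, 61.4 and 47.2 in R1 and of 131, 140 and 97.5 in HN, the order in which all values are given here. The lowest HN library was well above the highest R1 library. The log2 difference was 1.14 (standard error 0.24 and adjusted p = 0.126 by limma without the block, 0.16 and 4.37e-06 with it), a 2.20-fold higher level in HN. The libraries were not strand-specific and 56.6% of the exon bases of Zfp213 overlap genes annotated on the other strand (Gm26695 and AC154766.4), so the reads of these genes cannot be told apart.

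Zfp386 holds a KRAB pattern and 9 fingers (chromosome 12 from 116047724 to 116063360, plus strand). With means of 44.6 in R1 and 92.0 in HN it is a member only through HN, so its direction is fixed by the rule. It had 45.8, 48.8 and 39.1 normalized counts in R1 and 105, 83.6 and 87.7 in HN, without overlap. The log2 difference was 1.03 (standard error 0.18, adjusted p = 1.27e-04 by limma with the block, 0.172 without it). None of its 50-base stretches occurs in transcripts of another gene, and 0% of its exon bases overlap one. Without both libraries of date 2, Zfp213 (log2 difference 1.12, adjusted p = 3.19e-04) was still called by limma with the block. Zfp386 (1.16, adjusted p = 5.87e-04) was called there too, which adds no support, as its direction is fixed by the rule.

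Zfp57 was the most abundant of the called members. It had 1386, 1821 and 797 normalized counts in R1 and 2038, 2328 and 1187 in HN. The HN library of the third date lay below the R1 libraries of the other dates, so the lines overlapped, yet HN was the higher in each pair. The pair differences were 0.56, 0.35 and 0.57 on the log2 scale, with a mean of 0.49 (standard error 0.09, adjusted p = 1.46e-04 by limma with the block). Without the block the standard error was 0.32 and the adjusted p was 1.

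**Figure D3:**
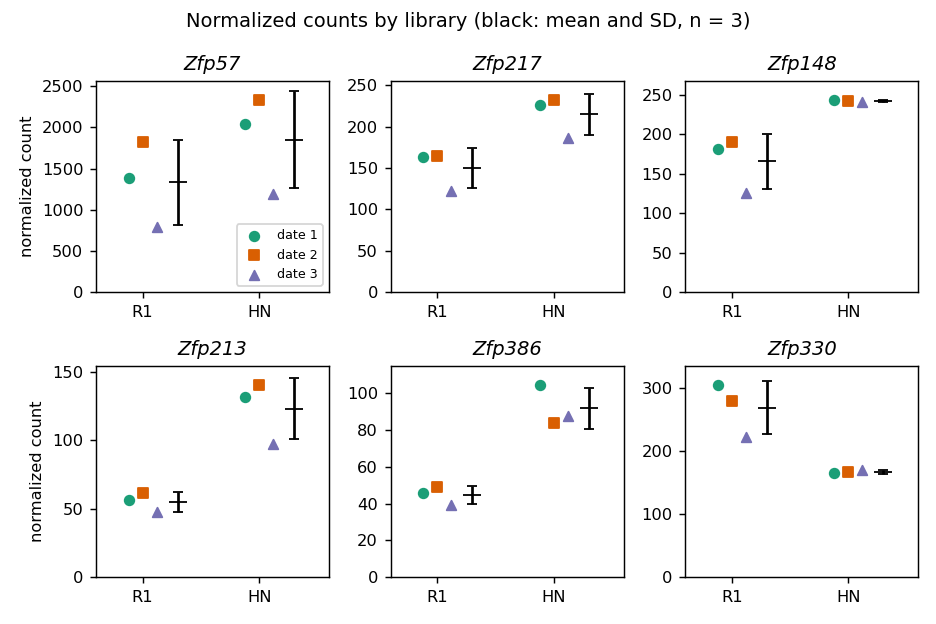
Normalized counts of 6 Zfp genes in each library (vertical axes start at 0), with coloured symbols for the collection dates and black bars for the mean and SD of each line (n = 3). Zfp213, Zfp386, Zfp148 and Zfp217 are higher and Zfp330 lower in HN without overlap, while Zfp57 overlaps between the lines and is lowest on the third date in both.

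Among the other up-regulated genes with a KRAB pattern, Zfp951 had 69.2, 82.9 and 189 normalized counts in R1 and 148, 221 and 225 in HN. Its R1 library of the third date reached the range of HN, and the pair differences were 1.09, 1.41 and 0.25. The log2 difference was 0.92 (standard error 0.16, adjusted p = 8.55e-05 by limma with the block). Zfp84 (log2 difference 0.69, adjusted p = 0.00469) and Zfp27 (0.67, adjusted p = 0.024) lie in the same cluster of 7 members on chromosome 7, and their libraries overlapped between the lines. Zfp27, with means of 41.3 in R1 and 65.0 in HN, is likewise a member only through HN. Zfp941 had 109, 79.2 and 91.7 normalized counts in R1 and 153, 113 and 154 in HN, without overlap (log2 difference 0.58, adjusted p = 0.006). The same fit called Zfp942 (0.54, adjusted p = 0.0117), Zfp26 (0.45, adjusted p = 0.00662) and Zfp936 (0.30, adjusted p = 0.0453). Zfp600 had 95.8, 124 and 140 in R1 and 157, 242 and 177 in HN (log2 difference 0.67, adjusted p = 9.91e-04), but 81.2% of its 50-base stretches also occur in transcripts of other genes, most often of Rex2, so its reads are uncertain. Of the stretches of Zfp936, 15.6% are shared with other genes, and 14.2% of the exon bases of Zfp26 overlap a gene on the other strand.

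The up-regulated genes without a KRAB pattern included transcription factors and cofactors. Zfp148, which binds GC-rich promoter sequences, had 182, 190 and 125 normalized counts in R1 and 243, 242 and 242 in HN. The HN libraries were nearly equal and lay above all R1 libraries, with a log2 difference of 0.57 (standard error 0.13, adjusted p = 0.00246 by limma with the block). Zfp217, a partner of corepressor complexes with LSD1 and CoREST, had 163, 165 and 123 in R1 and 226, 232 and 186 in HN, again without overlap. Its pair differences of 0.47, 0.49 and 0.60 were close to each other (mean 0.52, adjusted p = 0.00428). Zfp592 and Zfp532, both known as partners of the chromatin reader ZMYND8, had log2 differences of 0.69 (adjusted p = 0.00961) and 0.44 (adjusted p = 0.00781), with libraries that overlapped between the lines. Of the exon bases of Zfp532, 28.7% overlap genes on the other strand. Zfp553 had 283, 421 and 110 in R1 and 352, 588 and 204 in HN, with HN the higher on each date (log2 difference 0.56, adjusted p = 0.00114). Zfp236 (0.55, adjusted p = 0.0319) and Zfp407 (0.40, adjusted p = 0.0453), which hold 30 and 22 fingers, did not overlap between the lines.

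Of the 6 down-regulated members, Zfp330, a nucleolar protein, had the lowest difference. It had 304, 279 and 222 normalized counts in R1 and 164, 166 and 170 in HN. The HN libraries were alike and lay below all R1 libraries. The log2 difference was -0.67 (standard error 0.12, adjusted p = 2.31e-04 by limma with the block, 0.433 without it), and R1 had a 1.59-fold higher level. Zfp330 lies on chromosome 8 (82763607 to 82774160, minus strand), where the 405 tested genes that are no members and have a mean of at least 50 had a median of -0.21.

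Zfp444, which holds a SCAN pattern, had 136, 105 and 82.2 normalized counts in R1 and 87.6, 62.4 and 58.5 in HN (log2 difference -0.62, adjusted p = 0.00855). The HN library of date 1 exceeded the R1 library of date 3, so the lines overlapped. Zfp1 (-0.61, adjusted p = 0.0268) and Zfp459 (-0.49, adjusted p = 0.0106), both with a KRAB pattern, also overlapped. Of the stretches of Zfp459, 15.9% are shared with other genes and 12.5% of its exon bases overlap a gene on the other strand, so its reads are uncertain. Zfp512 had 122, 105 and 112 in R1 and 102, 77.3 and 67.1 in HN, without overlap (-0.47, adjusted p = 0.0454). Zfp960 had 127, 94.7 and 84.9 in R1 and 80.3, 61.7 and 68.2 in HN (-0.52, adjusted p = 0.0319), but 82.7% of its 50-base stretches are shared, most often with its neighbour Zfp97. Zfp97 itself, with 81.3% shared, had 130, 109 and 116 in R1 and 138, 106 and 76.9 in HN and did not pass (-0.18, adjusted p = 0.554). How the counting split reads between this pair of genes was not tested. Zfp59 and Zfp534, with 52.4% and 68.4% of their stretches shared, are uncertain in the same way and did not pass (log2 differences -0.27 and 0.23).

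Of 6 members with a known part in the control of imprints and retroelements, 1, Zfp57, was called by limma with the block, and the median log2 difference of the 6 was 0.06. Beside this list and those that follow stand the 11.2% of all members called higher and the 3.75% called lower. Zfp445, which acts at imprinted regions beside Zfp57, had 209, 242 and 152 normalized counts in R1 and 204, 260 and 206 in HN, a log2 difference of 0.17 (95% interval -0.08 to 0.42). Zfp809, which silences murine leukaemia viruses, differed by -0.06 (-0.34 to 0.22). Zfp932, a repressor of endogenous retroviruses, differed by -0.24 (-0.62 to 0.15), Zfp568 by -0.12 (-0.31 to 0.07) and Zfp819, a retroelement repressor of pluripotent cells, by 0.33 (-0.03 to 0.70). Of the stretches of Zfp932, 37.0% are shared with other genes. Zfp708 (mean 29.0), of the same list, lay under the threshold.

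Of 8 members known as regulators of stem cells or chromatin, 1, Zfp217, was called, and their median was 0.03. Zfp281 had 529, 763 and 601 normalized counts in R1 and 507, 771 and 539 in HN (log2 difference -0.07, 95% interval -0.26 to 0.13). Zfp207 had 1798, 2108 and 1821 in R1 and 1518, 2049 and 1922 in HN (-0.07, -0.25 to 0.11). Zfp143, which binds promoters and loop anchors, differed by -0.12 (-0.36 to 0.13), Zfp462, a partner of heterochromatin proteins, by 0.21 (-0.02 to 0.44), and Zfp296, a Klf4 partner and a member only through HN, by 0.13 (-0.28 to 0.55). Zfp706, known for a role in the exit from self-renewal, was lower in each pair by 0.41, 0.23 and 0.39 without passing (mean -0.35, adjusted p = 0.0961 by limma with the block). Zfp219 on chromosome 14 was higher in each pair (0.38, adjusted p = 0.0518), on a chromosome where the 263 other genes with a mean of at least 50 had a median of 0.28. The reads of Zfp296 and Zfp219 are uncertain, as 12.9% and 12.7% of their exon bases overlap genes on the other strand. Zfp609 (mean 39.1), of the same list, lay under the threshold.

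Zfp335, a factor of neural progenitors that works with H3K4 methyltransferases, was the only member among the 6 listed neural factors that the table holds. It had 64.9, 96.2 and 60.7 normalized counts in R1 and 73.0, 110 and 56.3 in HN (log2 difference 0.08, 95% interval -0.26 to 0.42). Its reads are uncertain, as 28.3% of its exon bases overlap genes on the other strand. Zfp423 (mean 47.2), Zfp503 (21.9), Zfp703 (19.7), Zfp536 (9.52) and Zfp521 (5.99) lay under the threshold. Among 7 members with roles in RNA, ribosome or ubiquitin pathways, Zfp330 was the only one called. The log2 differences of the ribosome quality-control ubiquitin ligase Zfp598 (0.04, 95% interval -0.20 to 0.28), the ubiquitin ligase Zfp91 (0.06, -0.19 to 0.32) and Zfp830 (0.13, -0.15 to 0.41) were near 0. The ribosome assembly factors Zfp622 (-0.32, adjusted p = 0.112) and Zfp593 (-0.13, adjusted p = 0.731) did not pass, and 77.9% of the exon bases of Zfp593 overlap a gene on the other strand. Zfp106 had 1815, 1839 and 1390 in R1 and 2014, 2191 and 1752 in HN, higher in each pair, and missed the threshold (0.25, adjusted p = 0.0643). Of its exon bases, 26.1% overlap a gene on the other strand, so its reads are uncertain. Zfp346 (mean 47.9) and Zfp36 (9.17) lay under the level that made a member.

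The collection date separated many members. In the F-test of the date in the fit with the line, 75 members (46.9%) passed, against 46.0% of all genes tested and 53.1% of genes with a mean of at least 50. The share was thus close to that of all genes. Without the variance trend 0 members passed, with 52 at an unadjusted p under 0.05, beside 37.3% of all genes tested. Of the 75 members, 63 were lower on the third date than on the first, and 48 were lowest on the third and highest on the second. The shares of all genes passing the date test with these orders are not given here, so neither count is particular to the members. Over all members the median log2 difference was 0.16 for the second minus the first date and -0.23 for the third minus the first, beside 0.12 and -0.21 for genes with a mean of at least 50. In all, 13 members (8.12%) were called both by date and, with the block, by line, against 5.30% of all genes tested.

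The 5 members with the smallest p in the date test were Zfp532, Zfp553, Zfp740, Zfp57 and Zfp936. Zfp532 had 247, 515 and 125 normalized counts on dates 1, 2 and 3 in R1 and 391, 604 and 170 in HN. Its level on the third date was 2.12-fold lower than on the first (adjusted p for the date = 2.24e-11 by limma). Zfp740 had 319, 516 and 193 in R1 and 319, 527 and 205 in HN, so the lines were nearly equal on each date and the second date was the highest in both (log2 difference between the lines 0.04, 95% interval -0.18 to 0.25). Against the majority, Zfp951 (log2 difference 1.02) and Zfp39 (0.92), chosen after their values were seen, were higher on the third than on the first date. The third date was also that of the highest fibroblast, primitive endoderm and neural marker sums in both lines, whose part in these differences was not tested.

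**Figure D4:**
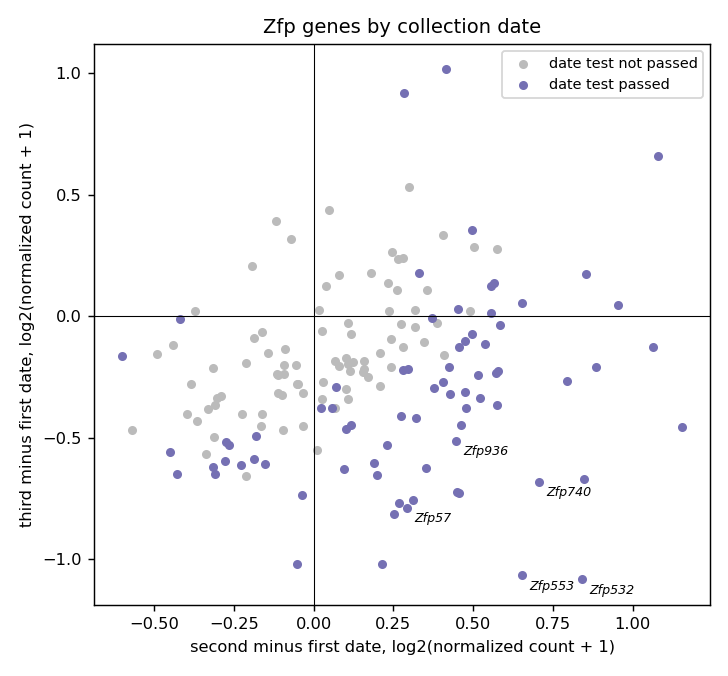
Each point is 1 of the 160 Zfp genes, with the log2 difference of the second minus the first collection date on the horizontal axis and of the third minus the first on the vertical axis, both adjusted for the line. Purple points passed the date test (75 genes). Most of them lie below 0 on the vertical axis, 63 in all, with Zfp532 and Zfp553 at about -1.1.

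By their predicted proteins, 84 members held a KRAB pattern and 76 did not. The median log2 difference between the lines was 0.07 with the pattern (10 called higher and 3 lower with the block) and 0.10 without it (8 and 3). The median level of the KRAB members was 22.8 normalized counts per kilobase, beside 24.0 for the others, and 32 of them passed the date test, against 43 of the others. A SCAN pattern was found in 7 members, of which 1 was called higher (Zfp213) and 1 lower (Zfp444). The number of C2H2 fingers ran from 0 to 36, with a median of 11, and Zfp142 held 36. The 35 members with 1 to 5 fingers had a median of -0.06 (3 higher, 3 lower), the 68 with 6 to 12 fingers 0.13 (10 and 1) and the 53 with 13 or more 0.08 (5 and 1). A C2H2 pattern was found 0 times in Zfp330, Zfp259, Zfp365 and Zfp185 by this search, which looked for no other kind of zinc-binding motif. Over all members, 11.2% were called higher and 3.75% lower with the block, and 46.9% passed the date test. Among genes with a mean of at least 50 these shares were 8.77%, 5.21% and 53.1%. None of the differences between groups was tested.

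The members were spread over the genome unevenly, with 35 on chromosome 7, 22 on chromosome 17 and 13 on chromosome 13. On chromosome 7 the median was 0.12, with 6 called higher and 1 lower, beside 0.04 for other genes with a mean of at least 50 on that chromosome. On chromosome 13 the members' median was -0.14, beside -0.06 for other genes. A cluster of 7 members there (Zfp459, Zfp953, Zfp748, Zfp87, Zfp738, Zfp493 and Zfp595), each within 1 Mb of the next, had a median of -0.24, with medians of -0.18, -0.21 and -0.25 in the pairs of dates 1, 2 and 3, and 1 member called lower (Zfp459). Of its genes, Zfp493 and Zfp595 are members only through R1. The cluster of 11 on chromosome 17 that holds Zfp213 and Zfp942 had a median of 0.24 and a range from -0.22 to 1.14. On chromosome 8, where other genes had a median of -0.21, the 11 members had a median of 0.02 and ranged from -0.67 to 0.53, with Zfp330 and Zfp1 called lower. The counts called stand beside 11.2% higher and 3.75% lower over all members, and 8.77% and 5.21% over genes with a mean of at least 50. Clustered genes can share reads, so clusters are described with no test.

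**Figure D5:**
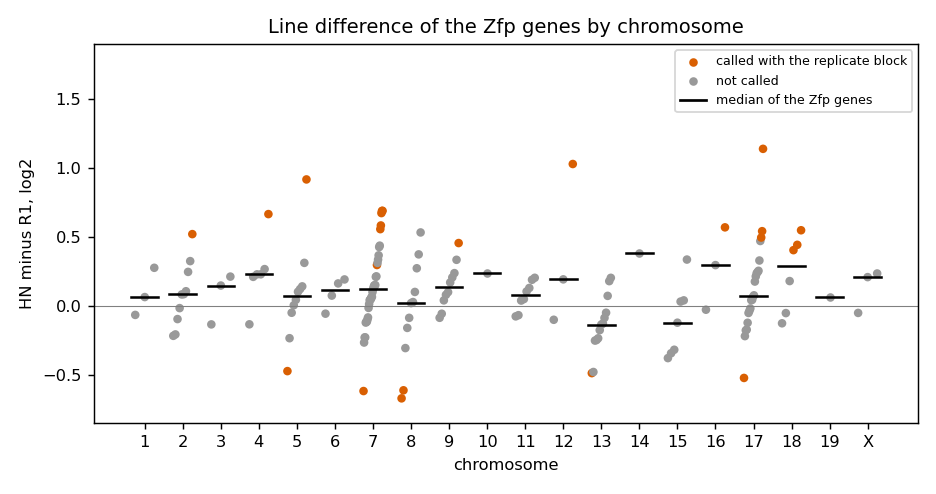
The horizontal axis gives the chromosome and the vertical axis the log2 difference HN minus R1 of each Zfp gene, with black lines for the median of the Zfp genes of a chromosome and orange for genes called by limma with the replicate block. Chromosome 7 holds 35 points with a median of 0.12, and chromosome 13 holds 13 with a median of -0.14.

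Promoter sequences are shown for the 2 members that passed at a log2 difference above 1, for Zfp57 as the member with the highest level per kilobase, and for Zfp330 as the member with the lowest difference. Each is the 250 bases before a transcription start listed by RefSeq (GRCm38.p6), read 5′ to 3′ on the gene's strand. Capitals mark matches, on either strand, to any of 7 motifs: the GC box (GGGCGG), the CCAAT box (CCAAT), the ETS core (CCGGAAGT), the NRF1 core (GCGCATGC), the E-box (CACGTG), the CRE (TGACGTCA) and the YY1 core (AAGATGGC). Where matches overlap, they run together in capitals. The regions are chr17:23564227-23564476 on the minus strand for Zfp213, chr12:116047474-116047723 on the plus strand for Zfp386, chr17:37000913-37001162 on the plus strand for Zfp57, the most upstream of 3 listed starts, and chr8:82774146-82774395 on the minus strand for Zfp330.
Zfp213: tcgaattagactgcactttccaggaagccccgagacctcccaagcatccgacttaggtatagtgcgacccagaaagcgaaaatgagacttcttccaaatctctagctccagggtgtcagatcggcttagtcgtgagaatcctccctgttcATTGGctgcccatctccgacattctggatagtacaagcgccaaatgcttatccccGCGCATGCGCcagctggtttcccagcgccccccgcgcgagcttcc
Zfp386: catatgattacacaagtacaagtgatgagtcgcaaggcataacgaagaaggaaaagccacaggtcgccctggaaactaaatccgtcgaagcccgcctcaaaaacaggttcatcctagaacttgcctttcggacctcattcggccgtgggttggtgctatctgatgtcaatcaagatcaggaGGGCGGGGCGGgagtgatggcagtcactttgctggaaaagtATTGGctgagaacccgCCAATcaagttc
Zfp57: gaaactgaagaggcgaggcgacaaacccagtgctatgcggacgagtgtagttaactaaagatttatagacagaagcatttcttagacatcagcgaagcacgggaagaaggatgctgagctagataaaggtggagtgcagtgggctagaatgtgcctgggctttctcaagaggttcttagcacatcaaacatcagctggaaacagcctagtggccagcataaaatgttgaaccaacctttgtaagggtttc
Zfp330: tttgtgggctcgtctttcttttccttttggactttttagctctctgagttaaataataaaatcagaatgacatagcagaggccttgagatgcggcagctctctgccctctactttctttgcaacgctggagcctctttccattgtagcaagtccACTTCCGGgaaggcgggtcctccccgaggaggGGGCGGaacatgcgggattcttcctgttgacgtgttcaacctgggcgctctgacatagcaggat

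Zfp213 held 1 CCAAT box and 2 overlapping NRF1 cores, Zfp386 2 CCAAT boxes and 2 overlapping GC boxes, Zfp330 1 ETS core and 1 GC box, and the printed Zfp57 window 0 matches. The NRF1 matches of Zfp213 are the same stretch, GCGCATGCGC, read on opposite strands, and are not 2 separate sites. Of the other 2 listed starts of Zfp57, the window chr17:37002275-37002524 held 1 CCAAT box and the window chr17:37003416-37003665 held 0 matches. Of the 160 members, 127 had a promoter in the RefSeq table, and 101 of these had a single listed start. The promoters of these 101 had a median GC content of 52.4% and 11 CpG sites. The values were 61.2% and 18 for the 4533 genes with a mean of at least 50 and a single start that are not members. A CCAAT box was found in 47.5% of the members, in 38.6% of those genes and in 33.8% of all 32851 promoters of the same length in the table. Among members with a KRAB pattern it was found in 56.9% (33 of 58) and among those without in 34.9% (15 of 43). A GC box was found in 47.5% of the members, 66.1% of the 4533 genes and 32.7% of all promoters. A match describes these letters only and shows no binding, and no difference between these shares was tested.

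The corepressors through which KRAB proteins act were listed with the enzymes of H3K9 and DNA methylation, 29 genes of which 28 were tested. Without the block 0 were higher and 0 lower by limma (smallest adjusted p 0.374). With it 4 were higher (Atf7ip2, Atrx, Uhrf1 and Mphosph8, with log2 differences of 0.67, 0.62, 0.57 and 0.54) and 1 was lower, the DNA methyltransferase Dnmt3a (-0.96). All 28 had a mean above 50, and of genes with a mean of at least 50 the fit called 8.77% higher and 5.21% lower. Over all genes tested these shares were 5.46% and 4.02%, and no difference from them was tested. The median of the list was 0.04. The date test was passed by 19 of the 28, beside 46.0% of all genes tested and 53.1% of genes with a mean of at least 50. Trim28 itself had 3387, 5806 and 3037 normalized counts in R1 and 2975, 6104 and 2984 in HN, with the highest value on the second date in both lines (adjusted p for the date = 9.35e-09, log2 difference between the lines -0.05 with a standard error of 0.09 and adjusted p = 0.822 by limma with the block). Setdb1 differed by 0.01 (adjusted p = 0.979).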

How the data were processed

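RNA-seq libraries of undifferentiated R1 and HN mESCs (3 per line) were made from 130 ng of total RNA with the TruSeq RNA v2 kit, which does not mark strand, and sequenced as paired-end 50 reads. The table deposited by the authors holds 1 normalized signal value for each gene and library, made with STAR (alignment to mm10/GRCm38), Picard (removal of PCR duplicates), HTSeq (reads on exons) and the size factors of DESeq2. Their versions and gene annotation are not given in the sources used here. Unused columns of per-sample values numbered 0. The gene name of 27 lines had been turned into a date, and none of these counts as a member.

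Within each library 100% of values were whole multiples of 1 read (tolerance 0.01), so reads were recovered for depth and for the count tests. Intervals cover the spread between these libraries only. The lines were compared with limma 3.58.1 in R 4.3.3 (empirical Bayes with a variance trend) on log2(normalized count + 1), which understates changes of low genes, for the 14276 genes with a mean of at least 5. The p-values were two-sided, BH-adjusted over all of them and called under 0.05. The study's methods name no block. The pairing comes from the collection dates in the labels, and the fit with the replicate block is given beside each result that it changes. Deviations of same-date libraries from their line's mean correlated across genes at 0.25, 0.69 and 0.77, those of different dates at -0.71 to 0.34. Replicates of a line differed by more than sampling noise (chi-square per degree of freedom 4.70 to 9.91). edgeR 4.0.16 and DESeq2 1.42.0 on the recovered reads, pseudocounts of 0.1 and 10, other filters and scalings, no variance trend and left-out libraries were alternatives. The functions were tested on simulated data.

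The members and lists were chosen with earlier results of these data known. Named genes are the members called with the block and of one sign in all pairs (at most the 10 largest per direction), a list of characterised genes, the 5 highest per kilobase, the 3 on either side of the threshold, the 5 with the smallest date p, and members with over 50% shared stretches. The other called members, Zfp39, Zfp97's values and the genes of the chromosome 13 cluster were named after their values were seen, as were the members with a mean below 50 in one line. Positions, exon lengths, shared 50-base stretches and proteins translated for counting fingers and patterns come from GENCODE M21 (157 members by symbol, 3 by synonym). A KRAB pattern was searched in all isoforms, and a divergent KRAB domain can lack it. The SCAN pattern was searched only in the longest predicted protein, and a SCAN domain can likewise be missed.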

Additional observations from a re-analysis of the deposited data

How the results depend on the processing

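Without the replicate block, the number of members higher in HN was 0 and moved to 1 with DESeq2 (Zfp213), to 1 with median centring (Zfp213, adjusted p = 0.0488 by limma), to 10 at an unadjusted p under 0.05, and to 0 to 1 with single libraries left out (1, Zfp951, without R1 replicate 3). With the replicate block it was 18 by limma, 20 by edgeR and 6 by DESeq2. The number lower was 0 and moved to 3 at an unadjusted p, and with the block to 6 by limma, 6 by edgeR and 1 by DESeq2. The limma block changed the call of no other member than these 24. The number lower was 0 with every single library left out. The median over the members ranged from -0.038 to 0.18 with single libraries left out.

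The alternatives to the blocked limma counts were chosen after seeing the data, except edgeR and DESeq2. The 18 higher became 6 with DESeq2, 0 without the variance trend, 7 without both libraries of date 2 and 2 at an absolute log2 difference above 1, and stayed between 12 and 21 in the others. The 6 lower became 1 with DESeq2, 3 without a filter, 0 without the trend, 1 without both libraries of date 2, 0 at an absolute log2 difference above 1 and 2 among members with a mean of at least 100. Fewer members are tested there (89). For the other settings the cause was not tested. The date count of 75 became 48 with quantile normalization and 0 without the trend.

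The direction of 15 named members not called without the block changed with single libraries left out, and their log2 differences then ranged from -0.20 to 0.0096 for Zfp143, -0.37 to 0.55 for Zfp296, -0.20 to 0.066 for Zfp809, -0.31 to 0.082 for Zfp568, -0.25 to 0.078 for Zfp281, -0.16 to 0.060 for Zfp207, -0.32 to 0.085 for Zfp593, -0.059 to 0.96 for Zfp532, -0.32 to 0.39 for Zfp740, -0.017 to 0.31 for Zfp445, -0.018 to 0.69 for Zfp219, -0.17 to 0.30 for Zfp335, -0.18 to 0.18 for Zfp598, -0.085 to 0.17 for Zfp91 and -0.043 to 0.43 for Zfp462. Without both libraries of the third date, Zfp598 was at -0.038 and Zfp91 at -0.034. At these depths, a member's difference under about 0.30 lies within the typical 95% interval of the blocked fit.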
